A study of Mus musculus with 4 samples.

Results

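The outer-arm axonemal dynein heavy chains are the motor subunits of the outer dynein arm, and 5 genes of the mouse encode them: Dnah5, Dnah8, Dnah9, Dnah11 and Dnah17. They were taken by gene symbol from a table of 18471 genes, in which all 5 were listed and all 5 passed the filter on low counts, among 17300 genes tested. RNA was sequenced from retinas of mouse embryos at embryonic day 19. Of 4 libraries, 2 came from embryos labelled wild-type and 2 from embryos labelled Foxn3KO, genotype Foxn3-/-, which lack exon 3 of Foxn3, a gene of the forkhead family of transcription factors (allele C57BL/6NJ-Foxn3em1(IMPC)Bay/Mmnc). The labels name no other allele, Cre driver or agent. Each library was made from a separate genotyped embryo, so n = 2 embryos per group throughout.

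The outer dynein arm is the complex on the axonemal doublet microtubules that drives the beat of motile cilia and sperm flagella. Each mammalian arm pairs a heavy chain of the gamma type with one of the beta type. In motile cilia Dnah5 is the gamma chain, and the beta chain is Dnah11 towards the base and Dnah9 towards the tip. Dnah8 (gamma) and Dnah17 (beta) are the chains known from the sperm flagellum. The study concerns primary cilia of the retina. Primary cilia, which include the connecting cilium of photoreceptors, normally carry no dynein arms.

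The libraries held 22543531 to 29360129 counts. Counts of Foxn3 itself were 2421 and 2712 under the wild-type label against 4181 and 3219 under the Foxn3KO label. The log2 fold change was 0.54 with SE 0.046 (adjusted p = 7.8e-08, edgeR quasi-likelihood), so the targeted gene was higher in the group labelled as its knockout. A count over the whole gene does not resolve exon 3 and checks nothing about the deletion, and directions below therefore rest on the labels. Wild-type replicate 1 stood apart: it had 83073 counts of the X-inactivation RNA Xist, against 9 to 19 in the other libraries. It had 0 counts of the Y-linked genes Ddx3y, Eif2s3y and Kdm5d, against 1461 to 2317. By these genes wild-type replicate 1 was female and the other libraries were male, so only the wild-type group mixed the sexes. Within groups the mean chi-square per gene between libraries was 9.473 for wild-type and 1.848 for Foxn3KO, above the 1 that counting noise gives. The wild-type mean includes Xist and the Y-linked genes, so it does not measure replicate disagreement apart from sex. Each library was kept as a replicate. The retinal identity of the tissue was checked on 15 markers of progenitors and retinal neurons. All 15 were measured, and those of the progenitors summed to 1789 to 1911 CPM (counts scaled to library size) in every library. Single markers did differ by edgeR at an adjusted p under 0.05. Of 6 progenitor markers 1 was called higher and 1 lower under the Foxn3KO label, and of 9 neuron markers 2 higher and 1 lower. Over all tested genes, 12.3% were called higher and 9.66% lower.

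Promoters of members that rose are shown first, with that of Dnah17, the 1 member whose window holds the forkhead core. Each RefSeq window runs from 250 bases before to 50 bases after the start of the gene, 5′ to 3′ on the gene's strand. The build of these windows is GRCm38.p6, not the mm39 of the deposited counts. Capitals mark matches on either strand to the forkhead core GTAAACA, the FOXN-type core GACGC or the RFX-type core GTTGCC.
Dnah9 (chr11:66168502-66168801, strand -): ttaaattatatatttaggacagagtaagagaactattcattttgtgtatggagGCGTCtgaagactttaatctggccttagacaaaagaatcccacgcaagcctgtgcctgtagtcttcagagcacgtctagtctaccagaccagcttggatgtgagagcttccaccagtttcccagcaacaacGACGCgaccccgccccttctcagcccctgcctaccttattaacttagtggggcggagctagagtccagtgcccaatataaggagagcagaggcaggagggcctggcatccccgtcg
Dnah11 (chr12:118198994-118199293, strand -): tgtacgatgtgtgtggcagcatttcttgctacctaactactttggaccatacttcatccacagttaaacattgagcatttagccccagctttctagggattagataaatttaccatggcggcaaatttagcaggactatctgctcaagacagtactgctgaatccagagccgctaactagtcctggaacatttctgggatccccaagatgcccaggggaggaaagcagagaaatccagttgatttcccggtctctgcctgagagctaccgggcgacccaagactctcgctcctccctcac
Dnah5 (chr15:28203516-28203815, strand +): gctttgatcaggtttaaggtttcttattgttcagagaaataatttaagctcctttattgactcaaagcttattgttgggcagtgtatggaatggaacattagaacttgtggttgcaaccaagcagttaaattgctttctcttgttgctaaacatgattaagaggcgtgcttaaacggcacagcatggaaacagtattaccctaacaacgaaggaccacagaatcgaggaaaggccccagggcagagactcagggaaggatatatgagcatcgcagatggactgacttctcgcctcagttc
Dnah17 (chr11:118129170-118129469, strand -): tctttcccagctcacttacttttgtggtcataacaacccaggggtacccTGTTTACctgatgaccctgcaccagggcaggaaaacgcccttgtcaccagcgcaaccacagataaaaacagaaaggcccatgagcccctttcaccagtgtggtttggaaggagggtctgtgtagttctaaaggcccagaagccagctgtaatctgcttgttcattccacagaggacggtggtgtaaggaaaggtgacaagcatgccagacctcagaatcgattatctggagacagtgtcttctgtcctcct

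In the Dnah9 window GACGC was found once on each strand, at 66 to 62 and at 197 to 193 bases before the start. The Dnah17 window held GTAAACA on the opposite strand, 201 to 195 bases before the start. The windows of Dnah5, Dnah11 and Dnah8 held none of the 3 motifs. Over all 32851 windows of the same length, 3.65% held GTAAACA, 27.2% held GACGC and 12.5% held GTTGCC. The motifs do not overlap each other in the windows shown. Of 9 other axonemal heavy chain genes with a window, 4 (Dnah7a, Dnah7b, Dnah7c and Dnah10) held GTTGCC, 3 held GACGC and 0 held GTAAACA. A match is a stretch of letters and not evidence of binding.

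The genotype comparison asks how the mutation of Foxn3 alters the transcripts of the arm motors. Transcripts of the 3 chains known from motile cilia, Dnah9, Dnah11 and Dnah5, rose in the libraries labelled Foxn3KO, by 17.3-fold, 5.7-fold and 9.21-fold. The sperm-type chains Dnah8 and Dnah17 did not pass the test. Thus 3 of 5 members were called higher and 0 lower at an adjusted p under 0.05 (edgeR quasi-likelihood, Benjamini-Hochberg adjustment), against a background of 12.3% of the tested genes called higher and 9.66% called lower. The members' median log2 fold change was 2.51, and that of all tested genes was -0.0047. In bulk tissue, more expressing cells and more RNA per cell cannot be told apart.

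Among the beta-type chains, Dnah9 (ENSMUSG00000056752, chromosome 11, 69 exons) gave 73 and 71 counts under the wild-type label and 1386 and 1084 under the Foxn3KO label. Scaled to library size with TMM factors, this was 2.94 and 2.61 CPM against 47.6 and 48.4 CPM. Both Foxn3KO libraries lay far above both wild-type libraries, and within each group the libraries were close. The means were 2.78 ± 0.234 and 48 ± 0.57 CPM (SD, n = 2 each). The log2 difference was 4.11, with SE 0.0942 and an edgeR adjusted p = 7.92e-16. By log2 fold change Dnah9 ranked 49 among the 17300 tested genes, counted from the highest.

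Dnah11 (ENSMUSG00000018581, chromosome 12, 82 exons), a chain whose mutation in mice disturbs left-right asymmetry, had the highest level per length of the members in wild-type. It gave 118 and 129 counts under the wild-type label and 750 and 640 under the Foxn3KO label, or 4.76 and 4.75 CPM against 25.8 and 28.6 CPM. The groups did not overlap, and the wild-type libraries were nearly equal. The group means were 4.75 ± 0.00737 and 27.2 ± 1.99 CPM (SD, n = 2 each). Dnah11 thus had a log2 fold change of 2.51, with SE 0.104 and an edgeR adjusted p = 3.02e-12.

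Dnah17 (ENSMUSG00000033987, chromosome 11, 81 exons) had the fewest counts of the members, 16 and 9 under the wild-type label and 11 and 12 under the Foxn3KO label. In CPM these were 0.645 and 0.331 against 0.378 and 0.536, and the groups overlapped. The log2 fold change was -0.11 (SE 0.524, edgeR adjusted p = 0.916), with a 95% interval from -1.21 to 1.00. In fold terms the interval ran from 0.432 to 2, and a difference within it was not detectable at this depth.

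Of the gamma-type chains, Dnah5 (ENSMUSG00000022262, chromosome 15, 79 exons) is the chain most often mutated in human primary ciliary dyskinesia. It gave 10 and 27 counts under the wild-type label and 175 and 162 under the Foxn3KO label, or 0.403 and 0.994 CPM against 6.01 and 7.23 CPM. Both Foxn3KO libraries were above both wild-type libraries, and wild-type replicate 1 was the lowest. The exact 95% Poisson intervals of the wild-type counts, 4.8 to 18.4 and 17.8 to 39.3, overlapped; such intervals cover counting error only. The group means were 0.699 ± 0.418 and 6.62 ± 0.865 CPM (SD, n = 2 each). Dnah5 thus had a log2 fold change of 3.20, with SE 0.273 and an edgeR adjusted p = 7.92e-08. The size changed with the wild-type library left out, to 2.72 without replicate 1 and to 4.0 without replicate 2.

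Dnah8 (ENSMUSG00000033826, chromosome 17, 93 exons) gave 46 and 60 counts under the wild-type label and 70 and 57 under the Foxn3KO label, or 1.85 and 2.21 CPM against 2.40 and 2.55 CPM. The Foxn3KO libraries were slightly above the wild-type ones, by less than the test could separate. Without overlap between groups, 4 members (Dnah5, Dnah8, Dnah9 and Dnah11) were higher under the Foxn3KO label, against 29.9% of all tested genes higher and 30.5% lower in this way. For Dnah8 the log2 fold change was 0.28 (SE 0.233, edgeR adjusted p = 0.447), with a 95% interval from -0.22 to 0.77. In fold terms the interval ran from 0.86 to 1.7, and that of Dnah5 from 6.18 to 13.7.

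**Figure D1:**
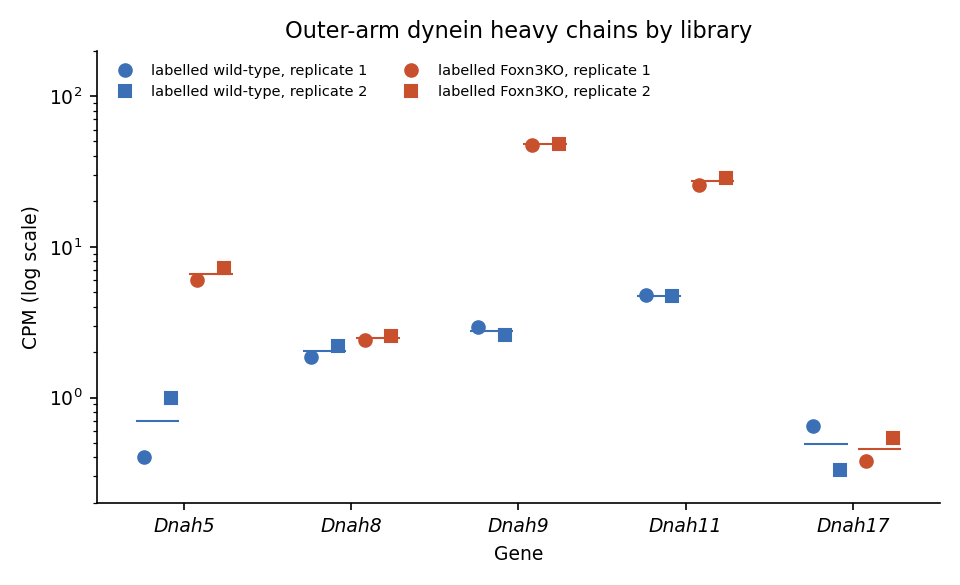
CPM of each heavy chain in each of the 4 libraries on a log axis; circles and squares are replicates 1 and 2, colours are the labelled groups and short lines are group means. Dnah9, Dnah11 and Dnah5 are separated between the groups, Dnah17 overlaps, and Dnah8 runs from 1.85 to 2.55 CPM over all libraries.

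Besides Dnah5, the called members changed little when 1 library was left out, Dnah9 from 4.02 to 4.20 and Dnah11 from 2.44 to 2.59. Without wild-type replicate 1, the library that differed in Xist and the Y-linked genes, the log2 fold change was 4.20 for Dnah9, 2.51 for Dnah11 and 0.16 for Dnah8. Dnah17 changed sign with the library left out, from -0.53 to 0.43, and passed the test in none of these fits. The same 3 members, Dnah5, Dnah9 and Dnah11, were called in every fit that left out 1 library.

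**Figure D2:**
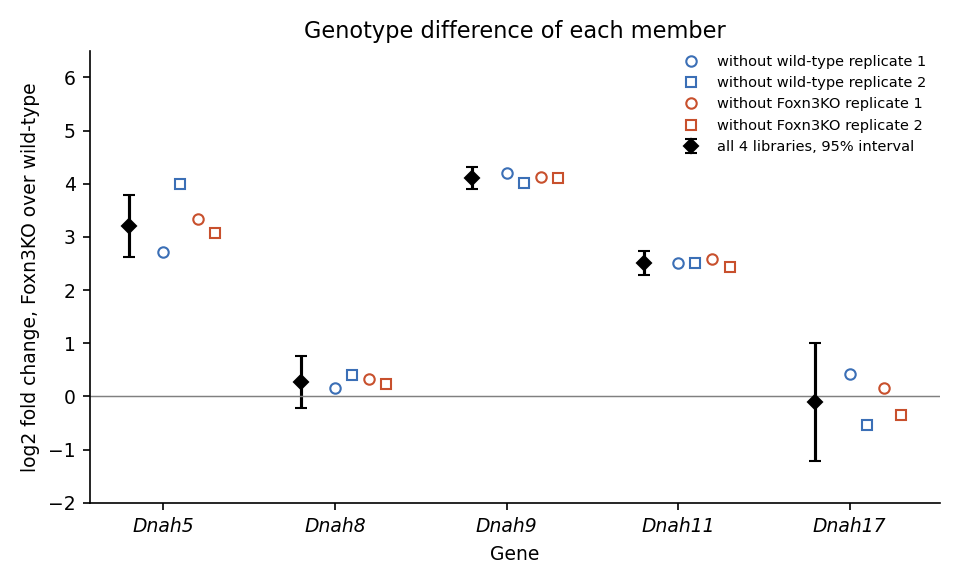
Log2 fold change of each member, Foxn3KO over wild-type. Black diamonds are the fit to all 4 libraries with 95% intervals, and open symbols are fits that leave out 1 library; those of Dnah9 lie between 4.02 and 4.20, those of Dnah5 between 2.72 and 4.0.

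Levels of different genes were compared per length, on the deposited FPKM values, which are scaled for gene length and library size. For Dnah8 these values rest on a longer length than for Dnah9. In wild-type its mean of 2.03 CPM gave 0.0755 FPKM, while 2.78 CPM of Dnah9 gave 0.174. Yet the longest coding transcripts of Dnah8 and Dnah9 have 14583 and 13798 bases in GENCODE M21. The FPKM level of Dnah8 against the other members is therefore uncertain in size. The wild-type order was Dnah11 (0.328 and 0.327 FPKM), Dnah9 (0.184 and 0.163), Dnah8 (0.0688 and 0.0821), Dnah5 (0.0257 and 0.0634) and Dnah17 (0.04 and 0.0206). Dnah5 and Dnah17 overlapped between libraries, and the other neighbours did not. The Foxn3KO order was Dnah9 (2.98 and 3.03 FPKM), Dnah11 (1.78 and 1.97), Dnah5 (0.383 and 0.461), Dnah8 (0.0894 and 0.0946) and Dnah17 (0.0235 and 0.0333), and no neighbours overlapped. Dnah9 thus passed Dnah11, and Dnah5 passed Dnah8, and the same held in CPM.

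The summed FPKM of the 5 members was 0.646 and 0.657 in wild-type and 5.25 and 5.59 in Foxn3KO, a ratio of group means of 8.32. Dnah11 made up 50.3% ± 0.618 of this sum in wild-type and 34.6% ± 1.01 in Foxn3KO (SD, n = 2 each). Dnah9 made up 26.7% ± 2.53 and 55.4% ± 1.79. The share of Dnah8 was 11.6% ± 1.3 in wild-type and 1.7% ± 0.00639 in Foxn3KO, while its own level differed by less than the test could separate. The size of this share, and through the sum of the others, rests on the length used for Dnah8. Dnah5 held 6.81% ± 4.01 and 7.78% ± 0.675 of the sum, and these overlapped.

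**Figure D3:**
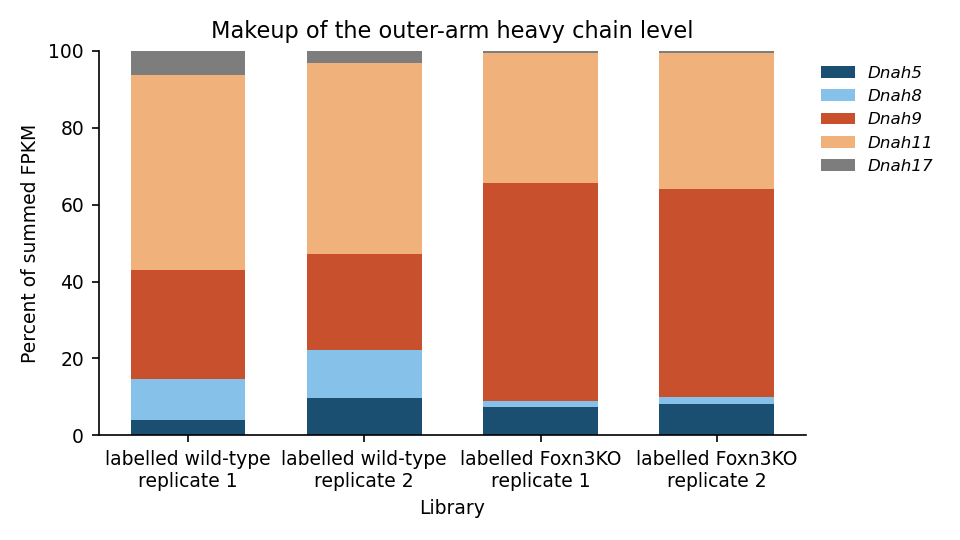
Percent of the summed FPKM of the 5 members that each gene gave, as stacked bars for each library. Dnah11 is the largest part in both wild-type libraries (50.7% and 49.8%) and Dnah9 in both Foxn3KO libraries (56.7% and 54.2%).

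The ratio of Dnah9 to Dnah11 FPKM was 0.561 and 0.499 in wild-type and 1.68 and 1.54 in Foxn3KO. The ratio of Dnah5 to Dnah8 was 0.373 and 0.772 in wild-type and 4.29 and 4.87 in Foxn3KO. The size of the ratio to Dnah8 rests on the length used for Dnah8, but its relative change between groups does not. Both ratios separated the groups. In contrast, the ratio of the ciliary beta chains together (Dnah9 plus Dnah11) to the ciliary gamma chain Dnah5 was 19.9 and 7.75 in wild-type and 12.4 and 10.8 in Foxn3KO. The Foxn3KO values lay between the wild-type values. Over 4 ratios the exact two-sided permutation test over libraries gave p = 0.333 (Benjamini-Hochberg adjusted 0.444) for each of the first 2 and for all beta over all gamma chains, and p = 1 (adjusted 1) for the ratio to Dnah5. With 2 libraries per group 0.333 is the smallest p this test allows.

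All 5 genes are long, with coding lengths from 13443 to 14193 bases in GENCODE M21. No stretch of 50 bases was shared between the longest coding transcripts of any pair of members. With other genes, 95 of 14023 such stretches of Dnah11 and 1 of 13749 of Dnah9 were shared, and none of Dnah5, Dnah8 or Dnah17. Overlap with genes on the opposite strand was found for all members other than Dnah5. Dnah9 shares 495 exon bases with Gm12296, annotated as a processed transcript. Gm12296 had 12 and 9 counts in wild-type and 143 and 93 in Foxn3KO, a log2 fold change of 3.48 (edgeR adjusted p = 7.64e-08). Dnah11 shares 642 exon bases with Cdca7l, whose log2 fold change was -0.07 (edgeR adjusted p = 0.418). Dnah17 shares 93 exon bases with Pgs1 and 256 with Gm11738, and Dnah8 shares 207 with 1700097N02Rik and 443 with AC165951.2, whose counts were not analysed here, and 0 with Glo1. The library kit marks strand, but the use of strand in the counting was not stated, so reads of such pairs cannot be told apart.

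Genes for the other parts of the arm were then described from lists chosen by role. Of the intermediate and light chains, 7 of 8 tested genes rose and 0 fell, with a median log2 fold change of 0.77. The smallest rises among the 7 were those of Dynll1 and Dynll2, with log2 fold changes of 0.34 and 0.14. Their wild-type means were 220 and 395 CPM. The intermediate chain Dnai2 rose from 3 ± 0.024 to 27 ± 1.01 CPM (SD, n = 2 each; log2 fold change 3.17, edgeR adjusted p = 2.25e-13). The light chain of the roadblock type Dynlrb2 had a log2 fold change of 4.11 (edgeR adjusted p = 6.06e-14), as large as that of Dnah9, while its paralog Dynlrb1, which serves cytoplasmic dynein, had 0.06 (edgeR adjusted p = 0.403). Against the 21.9% of all tested genes called in either direction, all 4 tested genes of the docking complex, which fixes the arm to the doublet, rose, with a median of 2.95. Odad4 had a log2 fold change of 3.78 and the calcium-binding Clxn 2.51 (edgeR adjusted p = 2.28e-14 and 1.74e-14).

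Of the factors that assemble dynein arms in the cytoplasm, 13 of 16 tested genes rose and 0 fell, with a median log2 fold change of 1.34. The shares over all tested genes were 12.3% called higher and 9.66% called lower. Zmynd10 rose from 1.87 ± 0.0934 to 37.6 ± 3.2 CPM (SD, n = 2 each; log2 fold change 4.33, edgeR adjusted p = 5.79e-15). Cfap298 had 1.59 (edgeR adjusted p = 3.24e-12). The 3 that did not pass were Dnaaf9 (0.01), Dnaaf10 (0.09) and Pih1d1 (0.02), with edgeR adjusted p of 0.939, 0.447 and 0.824. In wild-type these 3 had means of 107, 21.9 and 63.7 CPM. DESeq2 called 11 of the list higher, and Dnaaf8 and Spag1 did not pass with it (DESeq2 adjusted p = 0.117 and 0.171).

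The inner-arm heavy chains served as the nearest comparison. Of 6 tested, 5 rose and 0 fell, with a median log2 fold change of 1.26, against 12.3% and 9.66% of all tested genes. Dnah3, Dnah6, Dnah12 and Dnah14 were not analysed here. Dnah10 went from 0.0324 and 0.0433 FPKM in wild-type to 6.31 and 6.00 in Foxn3KO, a log2 difference of 7.32 with SE 0.101 and an edgeR adjusted p = 1.6e-18, and its Foxn3KO level was above that of every outer-arm chain. Dnah2 had a log2 fold change of 1.62 (edgeR adjusted p = 2.44e-11). Dnah1 had 0.01 (edgeR adjusted p = 0.978), with 0.618 and 0.836 FPKM in wild-type and 0.693 and 0.778 in Foxn3KO. Reads of Dnah7a, Dnah7b and Dnah7c, all among those called, may be split among these similar copies, and their values are uncertain. Dnah7a passed narrowly with edgeR (adjusted p = 0.0456) and did not pass with DESeq2 (adjusted p = 0.191).

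The heavy chain of cytoplasmic dynein, Dync1h1, was at 25.6 ± 2.45 FPKM in wild-type and 29.1 ± 0.267 in Foxn3KO (SD, n = 2 each). The test gave Dync1h1 a log2 fold change of 0.18 (edgeR adjusted p = 0.0154). Without Foxn3KO replicate 1 or 2 the fold change was similar, 0.19 and 0.18, but did not pass (edgeR adjusted p = 0.0733 and 0.114). With replicate 1 or 2 of wild-type left out it was 0.09 or 0.28, and passed in both fits (edgeR adjusted p = 0.0142 and 8.55e-18). The intraflagellar transport motor Dync2h1, used by primary cilia, rose from 4.27 ± 0.0548 to 7.9 ± 0.0557 FPKM (log2 fold change 0.88, edgeR adjusted p = 1.63e-10). The fold change of Dnah9, Dnah11 and Dnah5 was above that of both, although the difference between genes was not itself tested.

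**Figure D4:**
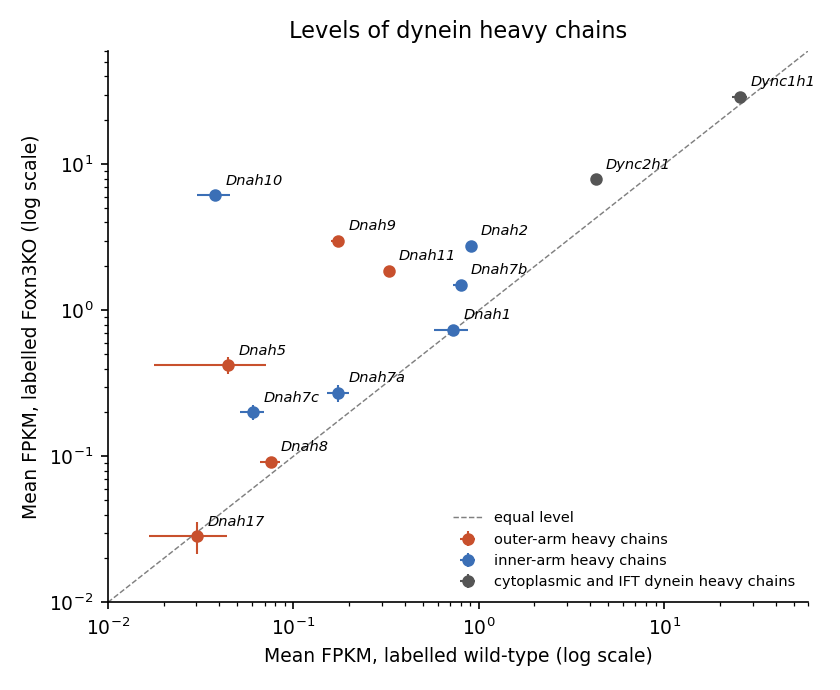
Mean FPKM of each dynein heavy chain in the libraries labelled wild-type (horizontal) and Foxn3KO (vertical), both on log axes, with bars of 1 SD over 2 libraries. Dnah9, Dnah11 and Dnah5 lie above the line of equal level, while Dnah8, Dnah17 and the inner-arm Dnah1 lie near it.

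Among regulators of motile cilia, 4 of 8 tested genes rose and 0 fell, with a median log2 fold change of 0.29. The shares over all tested genes were 12.3% called higher and 9.66% called lower. Foxj1, the forkhead activator of the motile cilia program, rose from 8.01 ± 0.436 to 176 ± 1.58 CPM (SD, n = 2 each; log2 fold change 4.45, SE 0.061, edgeR adjusted p = 1.6e-18). Rfx2 had a log2 fold change of 1.41 (edgeR adjusted p = 1.18e-10). Ccno, Rfx3 and E2f5 had 3.14, 0.40 and 0.18, of which Ccno and Rfx3 passed. The members of the list with a negative value were Trp73 (-0.28), E2f4 (-0.05) and Myb (-0.03), and none of them passed (edgeR adjusted p = 0.628, 0.52 and 0.602). Mcidas and Gmnc, the upstream switches of multiciliated cells, were not analysed here.

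**Figure D5:**
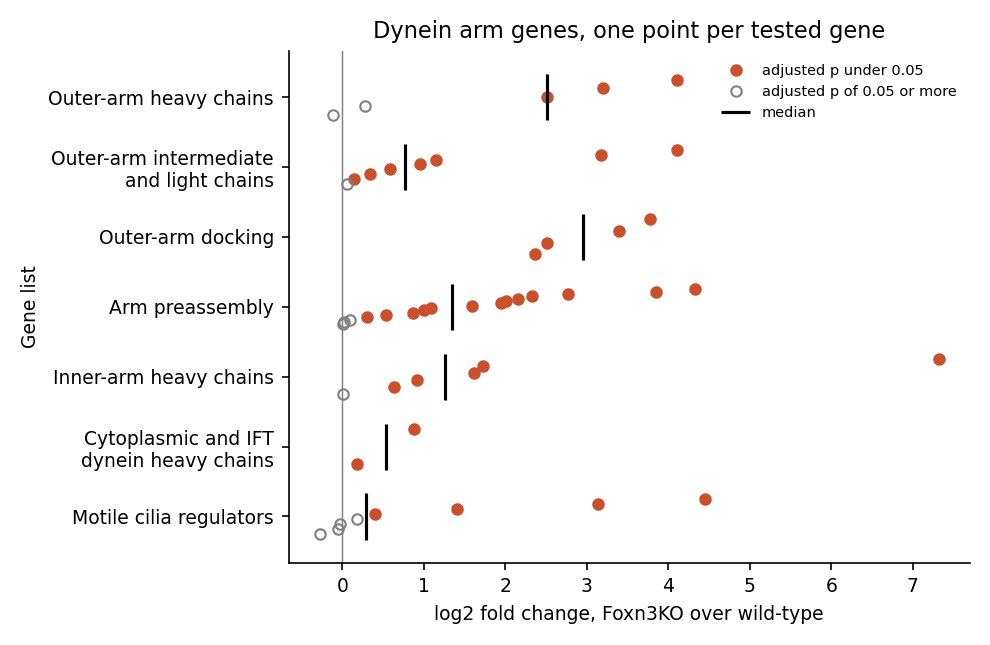
Log2 fold change, Foxn3KO over wild-type, of each tested gene in 7 lists of dynein arm and cilia genes. Filled points passed an adjusted p under 0.05, open points did not, and black lines are medians; the median is 2.51 for the outer-arm heavy chains and 2.95 for the docking complex.

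The genes nearest to each called member in profile were found by the Euclidean distance between log2(CPM + 1) values over the 4 libraries, each centred on its mean, among 14924 genes averaging 1 CPM or more. Nearest to Dnah9 were Zmynd10 (distance 0.121), Aifm3 (0.121) and Cfap126 (0.138). Nearest to Dnah11 were Cfap69 (0.0637), Dynlt5 (0.103) and Caps2 (0.11). Nearest to Dnah5 were Erich2 (0.164), Spag6l (0.189) and Spag16 (0.211). For comparison, the gene at rank 100 lay at 1.58, 0.632 and 0.702. The nearest genes of Dnah5 were, like Dnah5, lower in wild-type replicate 1 than in replicate 2, for example Erich2 with 21 and 37 counts. These distances rest on 4 libraries and mostly on the difference between the groups. A small distance does not mean a like fold, since the added 1 compresses low values. Dynlt5, at 0.202 and 0.184 CPM in wild-type, had a fold change of 23.6 against 5.7 for Dnah11, and Cfap126 had 41.6 against 17.3 for Dnah9.

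Markers of tissues next to the retina moved with the groups in part. Lens markers summed to 3.63 and 61.4 CPM in the wild-type libraries and 230 and 227 CPM in the Foxn3KO libraries. Against 12.3% of all tested genes called higher and 9.66% lower, 6 of 7 lens markers passed edgeR's test as higher and 0 as lower. None of them was at 0. With DESeq2 only Mip and Bfsp1 of these passed (adjusted p = 0.0226 and 1.16e-06), and Cryaa, Cryba1, Crybb3 and Bfsp2 did not (0.332, 0.701, 0.243 and 0.0523). The wild-type libraries differed strongly in these genes, as in Cryaa with 8 and 776 counts. In the same 2 libraries Dnah9 was at 2.94 and 2.61 CPM, Dnah11 at 4.76 and 4.75 CPM and Dnah5 at 0.403 and 0.994 CPM. The part of lens tissue in the values of Dnah9, Dnah11 and Dnah5 was not tested. Markers of retinal pigment epithelium summed to 78.6 and 102 CPM in wild-type and 63.9 and 65.3 CPM in Foxn3KO, with 0 called higher and 3 lower of 7 tested by edgeR. Of these 3, Tyr did not pass with DESeq2 (adjusted p = 0.073).

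Markers of choroid plexus and ependyma, tissues that carry motile cilia, summed to 10.2 and 13.3 CPM in wild-type and 13.4 and 13.5 CPM in Foxn3KO. Against 12.3% of all tested genes called higher and 9.66% lower, 2 of 5 tested rose (Folr1, 1.94, and Aqp1, 1.22). Another 2 fell (Ttr, -0.83, and Clic6, -1.53). None of these markers was at 0 in any library. The part of such tissue in the rise of the heavy chains was not tested. None of the 10 airway and nasal markers was analysed here.

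In the authors' deposited table the log2 fold changes were 4.10 for Dnah9, 2.50 for Dnah11 and 3.14 for Dnah5, with adjusted p of 6.35e-146, 1.04e-54 and 9.55e-17. The authors' deposited table lists Dnah8 at 0.10 on the log2 scale, adjusted p 0.706. It gives Dnah17 -0.01 with no adjusted p in the authors' deposited table. The DESeq2 fit run here gave the same adjusted p for Dnah9, Dnah11, Dnah5 and Dnah8. Its log2 fold changes were 0.28 for Dnah8 and -0.10 for Dnah17. The deposited values are thus not a separate test, and why their fold changes are smaller was not tested.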

How the data were processed

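RNA sequencing libraries of 4 retinas were analysed, grouped by their titles. The authors deposited whole-number counts per gene and library without normalization. They also deposited FPKM values, per the file headers, which were counts divided by a factor per gene and per library when checked on the file, and a mean signal per gene, a log2 fold change with its error and p-values. The submitters' processing notes name DESeq2 and mm39; the aligner, the counting tool, the use of strand and the removal of duplicates by molecular identifiers were not given in the sources used here.

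Of 18472 rows, 1 with a repeated identifier was dropped. Counts were filtered with filterByExpr, scaled with TMM and fitted in edgeR 4.0.16 (R 4.3.3) on genotype alone, by the newer form of its two-sided quasi-likelihood test. Benjamini-Hochberg adjustment was over 17300 genes, with a threshold of 0.05. Each SE was derived from a gene's fold change and its F statistic. The procedure was tested on simulated data in which few genes changed. It called 93 of 100 genes with a true log2 size of 2 and 85 of 99 with a size of 1. Of 16837 unchanged genes it called 15. No difference in sex or lens markers was simulated, so the error rate in these data is not shown. Replicate numbers recur in both groups, and whether they pair the embryos was not settled. The correlation of replicate differences over genes was -0.00825. It cannot decide this, since the wild-type libraries also differed in Xist, the Y-linked genes and lens markers. The members, lists and tests were chosen with earlier results of these data known. Genes named are the 5 members, Foxn3, Foxj1, both non-axonemal heavy chains, sex-linked genes, the 2 genes with the smallest p in each of 7 lists, genes against a list's direction and the 3 nearest profiles per called member. Genes named outside this rule were named after their values were seen. They were genes that did not pass in a list, Ccno, Rfx3, E2f5, Dynll1, Dynll2 and the Dnah7 copies. Genes overlapping a member and markers of other tissues were also among them. Other settings tried were DESeq2 1.42.0, voom of limma 3.58.1, edgeR's earlier fit, scaling by RLE or total counts, no filter or 10 counts in each library, a replicate block, an adjusted p under 0.01, levels from CPM over gene length, and leaving out each library. Annotation was GENCODE M21 (GRCm38), used only for names, lengths and overlaps. Figures were drawn with matplotlib 3.10.9.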

Additional observations from a re-analysis of the deposited data

How the results depend on the processing

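The call of 3 members, all higher, held under every alternative run for it, and the same 3 genes were called each time. Without 1 library or under another setting, 13% to 28.6% of all tested genes were called, against 21.9%. Under the replicate block the log2 fold changes were 4.11 for Dnah9, 2.51 for Dnah11, 3.22 for Dnah5, 0.29 for Dnah8 and -0.13 for Dnah17, and 4222 of all genes were called; the block changed no call of a member. The count of all genes called, 3795, was 2437 with DESeq2 (the cause was not tested) and 2298 at an adjusted p under 0.01, which is stricter by construction. Total count scaling called 1916 genes higher and 2060 lower, against 2123 and 1672. Of the inner-arm heavy chains, DESeq2, voom and total count scaling called 4, against 5 in the main fit. DESeq2 called 11 of the preassembly factors, against 13. Fits that left out 1 library assume that the lone library of a group varies like the other group; they called 2323 to 5067 of all genes and 1 to 2 of the cytoplasmic and intraflagellar heavy chains, and 3 members each time. Dnah17 ranged from -0.53 to 0.43, being 0.15 without Foxn3KO replicate 1 and 0.43 without wild-type replicate 1. With at least 10 counts in every library Dnah17 was not tested, and DESeq2 gave it no adjusted p. For the sex-linked genes, without wild-type replicate 1 Ddx3y was -0.03 and Kdm5d -0.16, and without wild-type replicate 2 they were 13.98 and 13.67. CPM over gene length gives the same shares of the summed FPKM by construction, so this alternative tested nothing. Depth limits Dnah17 most, at 9 to 16 counts per library.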
